A study of Mus musculus with 8 samples.

Results

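The SR proteins, the heterogeneous nuclear ribonucleoproteins (hnRNPs) and their partners were followed through RNA-seq libraries of mouse bone marrow progenitors. Members were taken by name alone: every listed gene whose symbol is Srsf with a number, begins with Hnrnp or Hnrp, or is Tra2a, Tra2b or Clk1 to Clk4. The rule gave 41 of 29955 gene names, namely 13 SR proteins, 22 hnRNPs, 2 Tra2 proteins and 4 Clk kinases. The rule itself uses no measured value, but it was set with earlier results of these data known.

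SR proteins carry RNA recognition motifs and a tail rich in serine and arginine, bind enhancer sequences in exons and bring the spliceosome to nearby splice sites. hnRNPs coat nascent transcripts and often act against SR proteins, so that the balance of both families helps to set which exons enter a mature mRNA. Clk kinases phosphorylate the tail of SR proteins and release them from nuclear speckles, and many of these regulators control their own transcripts. In blood, mutations of splicing factors, SRSF2 among them, are recurrent in myelodysplastic syndromes and related leukemias.

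There were 4 groups of 2 libraries: LSK and LK cells, each from wild-type (WT) mice and from mice without Ripk3 (Ripk3-/-, labelled Ripk3-KO), a kinase of programmed necrosis. LSK cells lack lineage markers and carry Sca1 and c-kit, and hold the stem and multipotent progenitor cells. LK cells carry c-kit without Sca1, and hold the myeloid progenitors. All mice were labelled as bone marrow donors of strain background CD57BL6/J, and age, number of mice and pooling were not stated for the libraries. The labels name no treatment, whereas the study describes cells taken after repeated X-irradiation of both genotypes, and any such exposure was shared by all 4 groups. The absence of Ripk3 was not restricted to blood cells by any promoter or Cre named in the labels. No source says that the 2 libraries of a group came from separate mice, so that p-values measure only the spread between these libraries, which may be technical.

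The libraries held 9782166 to 16280811 reads assigned to genes, and 0.817% to 1.12% of them fell on the members. The deposited values, called signal here, were read counts scaled by library size, separately within the LSK and the LK libraries and not divided by gene length, and 1 read was worth 0.0621 to 0.104 signal. Ripk3 fell from 162 and 168 signal in WT to 3.38 and 1.08 in Ripk3-/- LSK libraries (adjusted p = 2.4e-09, limma), and from 144 and 149.7 to 16.2 and 10.6 in LK libraries (adjusted p = 1.1e-05, limma). Every WT library held Xist and no reads of the Y-linked genes Eif2s3y, Uty and Kdm5d, and every Ripk3-/- library held reads of all 3 with Xist at 1.27 signal or less, so that genotype and sex cannot be told apart. Ly6a, which encodes Sca1, lay at 141 to 237 in LSK and at 0.124 to 4.12 in LK libraries, and Mpo of myeloid progenitors at 3529 to 5642 and 37309 to 54602. The summed signal of 8 neutrophil genes, all of them listed and detected, ran from 694 to 756 in WT and from 2287 to 2711 in Ripk3-/- LSK libraries. In LK libraries it ran from 772 to 778 in WT and from 1673 to 1674 in Ripk3-/- ones. In LSK libraries, 9 genes of LSK and stem cells summed to 2445 to 2496 in WT and 3305 to 3700 in Ripk3-/- ones. There, 9 myeloid progenitor genes summed to 8016 to 8984 in WT and 5830 to 7340 in Ripk3-/- ones. The part of these sums in the genotype differences given here was not tested. In sorted bulk cells, fewer cells of a type and less RNA per cell cannot be told apart.

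The symbols in the files mix older and current names, and some members are empty or minor entries. Srsf3 and Hnrph1 were at 0 reads in all 8 libraries, which allows up to 0.186 to 0.311 signal per library for counting error alone. The reads of Srsf3, the smallest SR protein and an adaptor of mRNA export, stood under its older name Sfrs3, with a signal of 15.0 to 57.6. Srsf7, another export adaptor, held 0 to 2.24 signal under that name, while Sfrs7 held 59.2 and 53.7 in WT LSK, 113 and 131 in Ripk3-/- LSK, 54.1 and 52.4 in WT LK and 43.8 and 45.9 in Ripk3-/- LK libraries. Hnrph1 and Hnrpk are older names of Hnrnph1 and Hnrnpk, which are listed as well, and Hnrpk stayed at or below 4.11 signal. Srsf15 is an older name of Scaf4, Srsf8 is a synonym of Sfswap, and both of these are listed too. Srsf12 is ambiguous, since Srek1 once shared that name. Hnrpdl and Hnrpll are the only entries of Hnrnpdl and Hnrnpll. Of the 41 members, 37 had reads in all 8 libraries and 19 had a signal of at least 100 in each.

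Per kilobase of exon, after all 8 libraries were scaled together, Hnrnpa2b1 was the most abundant of the 34 members with an unambiguous name and reads, with a mean over libraries of 233 CPM (read counts scaled to a common library size) per kb. Hnrnpab followed at 177, Hnrnpk, a binder of C-rich RNA, at 162, Hnrnpa1 at 127.2 and Hnrnpc, a binder of U tracts, at 126.9. Hnrnpa1 and Hnrnpc did not differ beyond the spread of their libraries, which ran from 55.1 to 203 and from 85.4 to 173. Srsf5 led the SR proteins at 121, ahead of Srsf6 at 89.2 and Srsf2 at 64.9. Srsf2 had the widest range of these in proportion, from 14.9 in a Ripk3-/- LK library to 195 in a WT LK library. At the other end were Clk2 at 3.96, Hnrnpul2 at 3.45 and Hnrnph3 at 2.79 CPM per kb, and the ranges of these 3 overlapped.

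**Figure D1:**
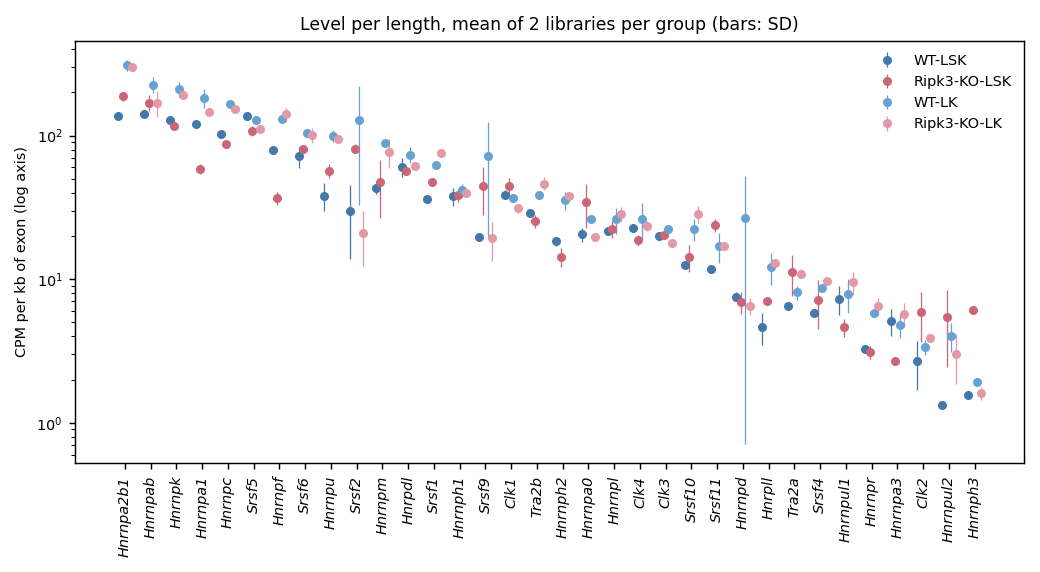
Mean level per length of 34 members in each group (2 libraries, bars SD), in jointly scaled CPM per kb of exon on a log axis, ordered by the mean over 8 libraries. Members span from 233 (Hnrnpa2b1) to 2.79 (Hnrnph3), and the group means of Srsf2 lie between 21.1 and 128.

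The promoters of the members on which the results turn are shown next, because Srsf2, Srsf9 and Hnrnpd were all high in the same library and Hnrnpa1 was among the 2 members that fell in Ripk3-/- LSK cells. Srsf2 lies on the minus strand of chr11:116849901-116853094, Srsf9 on the plus strand of chr5:115327177-115333080, Hnrnpd on the minus strand of chr5:99955935-99978938 and Hnrnpa1 on the plus strand of chr15:103240432-103246692 (GRCm38, GENCODE M21). The sequences are from RefSeq on GRCm38.p6, at chr11:116853095-116853294, chr5:115326927-115327176, chr5:99978939-99979060 and chr15:103240147-103240396, each within 250 bases before the start and free of annotated exons, 5′ to 3′ on the strand of the gene. Capitals mark motifs on either strand. One is the GC box, read as GGGCGG. The others are the CCAAT box, the TATA box (read as TATAAA) and the E box of basic helix-loop-helix factors, read as CACGTG. The last is the site of the AP-1 factors, read as TGAGTCA.
Srsf2: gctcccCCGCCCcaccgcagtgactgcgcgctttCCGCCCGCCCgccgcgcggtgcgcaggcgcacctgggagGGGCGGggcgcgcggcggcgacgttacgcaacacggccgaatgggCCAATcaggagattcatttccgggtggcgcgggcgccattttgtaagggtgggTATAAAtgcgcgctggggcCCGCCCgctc
Srsf9: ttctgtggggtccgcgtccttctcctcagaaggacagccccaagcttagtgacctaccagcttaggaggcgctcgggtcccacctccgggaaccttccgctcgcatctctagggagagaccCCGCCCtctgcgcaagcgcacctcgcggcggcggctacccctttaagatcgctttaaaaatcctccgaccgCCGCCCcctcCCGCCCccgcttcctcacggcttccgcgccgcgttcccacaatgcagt
Hnrnpd: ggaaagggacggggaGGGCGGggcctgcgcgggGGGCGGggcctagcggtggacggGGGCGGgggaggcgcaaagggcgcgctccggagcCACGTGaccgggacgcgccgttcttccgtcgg
Hnrnpa1: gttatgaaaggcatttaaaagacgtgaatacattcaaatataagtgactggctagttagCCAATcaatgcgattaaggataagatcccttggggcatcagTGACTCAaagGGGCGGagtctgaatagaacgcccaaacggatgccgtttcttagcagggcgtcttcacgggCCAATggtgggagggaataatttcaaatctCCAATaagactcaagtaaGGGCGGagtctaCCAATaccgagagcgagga
GC boxes were found 5 times in the Srsf2 window, where some overlap, and 3 times in each of the Srsf9 and Hnrnpd windows. Srsf2 alone of the 4 held TATAAA, Hnrnpd alone held CACGTG, and Hnrnpa1 held 4 CCAAT boxes and the only AP-1 site. Over the 50 windows of 250 bases that 36 members had in the RefSeq table, 41 held a GC box and 22 a CCAAT box, against 32.7% and 33.8% of all 32851 promoter windows. A match to the ETS motif CCGGAAG was present in 12 of the 50 and in 6.91% of all, and TATAAA in 3 of the 50 and in 12.4% of all. The 50 windows are not all separate, since windows of Srsf4 and of Sfswap overlap and hold the same ETS match. Most member windows were richer in G and C than the median of all promoters, 52.4%, and the shares were not adjusted for this. These matches are a description of letters in a window and were not tied to the expression values.

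Replicates were compared first, since the WT LK libraries disagreed on 3 members. Srsf2, which binds exonic enhancers, had a signal of 505 in WT LK replicate 1 and 159 in replicate 2. Srsf9, an SR protein with a short tail, had 158 and 51.4. Hnrnpd (AUF1), which binds AU-rich elements and marks mRNAs for decay, had 288 and 53.8. In each case replicate 1 was the higher by 3-fold or more, with ratios of signal + 1 of 3.17, 3.04 and 5.28. The next largest gaps were the 1.56-fold gap of Srsf8 (9.24 and 15.0) and the 1.51-fold gap of Srsf7 (2.24 and 1.14), the latter at 33 and 15 reads. Members at least 2-fold apart were 3 of 39 in WT LK, against 12.2% of all genes tested, and the median size of the log2 ratio was 0.24 for members and 0.33 for all genes. All 3 were higher in replicate 1, while over all genes 635 were higher in replicate 1 and 1070 in replicate 2. The immediate-early response genes summed to 9380 and 9116 in these 2 libraries. Single genes among them went either way, as with Junb at 845 and 689 and Fosb at 143 and 240. Their part in the gaps of the 3 members was not tested.

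The other groups held gaps as well. The Ripk3-/- LK libraries had 0 members at least 2-fold apart (11.1% of all genes). WT LSK had 4 of 38 (20.2% of all genes), which were Srsf2 at 138 and 62.1 and the low entries Hnrpk, Srsf15 and Srsf8. Ripk3-/- LSK had 3 of 38 (19.5% of all genes), which were Hnrnpul2 at 26.6 and 61.2 and again Hnrpk and Srsf15. Hnrnpm in that group had 552 and 298 signal, a 1.85-fold gap. The median size of the log2 ratio there was 0.24 for members and 0.43 for all genes. Srsf2 differed between replicates 1.80-fold in Ripk3-/- LK cells (38.7 and 70.5) and 1.12-fold in Ripk3-/- LSK cells (258 and 288).

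**Figure D2:**
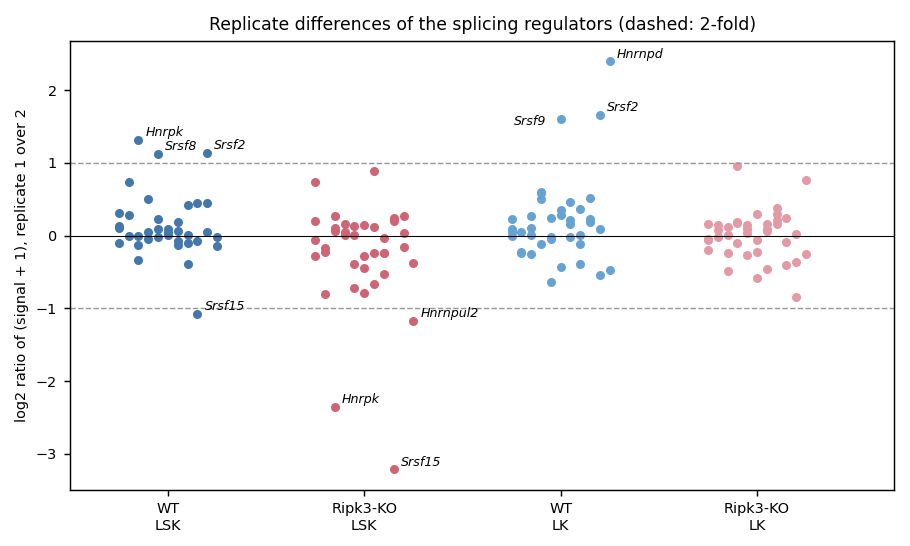
Log2 ratio of (signal + 1) of replicate 1 over replicate 2 for each member tested, by group, with dashed lines at 2-fold. Hnrnpd, Srsf2 and Srsf9 stand above the other members in WT LK at 2.40, 1.66 and 1.60, and no member passes the lines in Ripk3-/- LK.

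On the jointly scaled CPM, which puts all libraries on one scale, Srsf2 and Srsf9 ordered the libraries in much the same way. For Srsf2, WT LK replicate 1 stood highest at 576 CPM, followed by the Ripk3-/- LSK libraries at 252 and 228, WT LK replicate 2 at 179, WT LSK replicate 1 at 121, Ripk3-/- LK replicate 2 at 80.8, WT LSK replicate 2 at 54.5 and Ripk3-/- LK replicate 1 at 44.0. Srsf9 was likewise highest in WT LK replicate 1 at 180.4 and lowest in Ripk3-/- LK replicate 1 at 25.1, with Ripk3-/- LSK replicate 2 second at 92.6. Hnrnpd shared only the top place, at 329 CPM, and its 7 other libraries lay between 43.4 and 60.7.

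**Figure D3:**
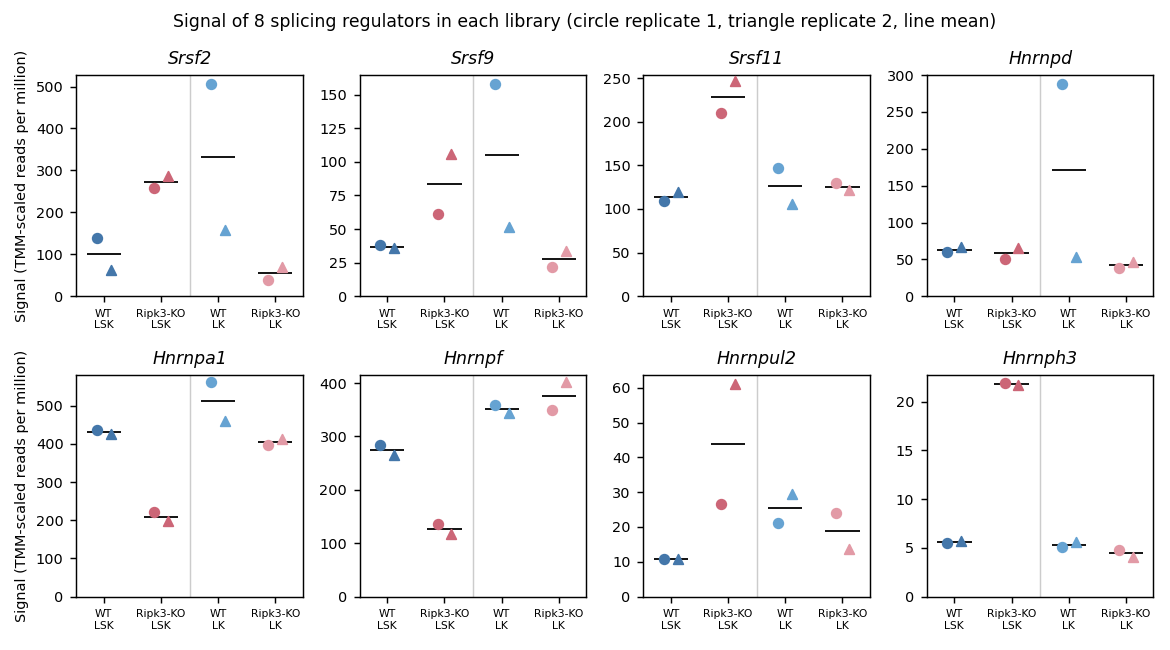
Signal of 8 members in each library (circle, replicate 1; triangle, replicate 2; line, mean of the group). Srsf2, Srsf9 and Hnrnpd show 1 high WT LK library at 505, 158 and 288, whereas Hnrnpf and Hnrnpa1 lie lower in Ripk3-/- than in WT LSK cells in every library. LSK and LK values were scaled separately.

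The first comparison asked which regulators differ between Ripk3-/- and WT LSK cells. Hnrnpul2, Srsf2 and Srsf11 were higher in Ripk3-/- LSK cells and Hnrnpf and Hnrnpa1 were lower. These were 5 of the 38 members tested, or 13.2%, against 2.16% of all 16817 genes tested (limma, Benjamini-Hochberg adjusted over all genes). Higher were 3, against 0.892% of all genes, and lower were 2, against 1.27%, and edgeR called 4 members, against 1.41% of all genes. The median log2 fold change was 0.16 over the members and -0.01 over all genes. Among genes with a mean of at least 5 signal, these medians were 0.16 and 0.09. All genes were not matched to the members in level or in replicate spread. In WT LSK cells the median size of the log2 ratio between replicates was 0.12 for members and 0.45 for all genes. The genotypes did not overlap in 23 of the 38 members (60.5%), against 44.6% of all genes.

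Among SR proteins, 2 of 11 tested were higher in Ripk3-/- LSK cells and 0 were lower. Srsf11, an SR-related protein that contacts the 3′ splice site factor U2AF, had 109 and 119 signal in WT libraries against 209.8 and 247 in Ripk3-/- ones. Both Ripk3-/- libraries lay above both WT libraries, with a log2 change of 0.99 (SE 0.21, adjusted p = 0.012, limma). Srsf2 had 138 and 62.1 signal in WT libraries against 258 and 288 in Ripk3-/- ones, again without overlap, with a log2 change of 1.54 (SE 0.39, adjusted p = 0.043, limma). The edgeR test of the recovered reads gave Srsf2 an adjusted p of 0.125 and Srsf11 an adjusted p of 0.0213. Srsf9 went the same way at 38.2 and 35.7 signal in WT libraries against 60.9 and 106 in Ripk3-/- ones, with no overlap, but its change of 1.10 had an adjusted p of 0.143 (limma). Sfrs7, the entry that carries the Srsf7 reads and lies outside the rule, was also higher, with a log2 change of 1.10 (SE 0.24, adjusted p = 0.0177, limma).

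The other SR proteins did not pass the test in LSK cells. Srsf1, which promotes use of 5′ splice sites, had 234 and 236 signal in WT libraries against 306 and 305 in Ripk3-/- ones, a difference of 0.38 on the log2 scale (adjusted p = 0.226, limma). Srsf5 was the only one of the 11 SR proteins tested with a lower mean in Ripk3-/- LSK cells, at 626 and 627 signal in WT libraries against 459.7 and 517 in Ripk3-/- ones, a difference of -0.36 on the log2 scale (adjusted p = 0.216, limma). In both genes the genotypes did not overlap and the adjusted p missed the threshold. The smallest changes were those of Srsf15, at 0.04 with 1.69 and 4.66 signal in WT libraries against 0.322 and 11.2 in Ripk3-/- ones, and of Srsf10, which represses splicing when dephosphorylated, at 0.16 with 102 and 98.9 signal in WT libraries against 96.1 and 131 in Ripk3-/- ones. Srsf4, Srsf6, Srsf8 and Srsf12 lay between 0.17 and 0.43 on the log2 scale, and all 4 overlapped between genotypes.

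Among hnRNPs, 1 of 21 tested was higher and 2 were lower in Ripk3-/- LSK cells. Hnrnpf, which binds runs of G near splice sites, had 284 and 264 signal in WT libraries against 136 and 118 in Ripk3-/- ones. Each WT library was well above each Ripk3-/- library, with a log2 change of -1.11 (SE 0.17, adjusted p = 7.8e-04, limma). Hnrnpa1, a silencer of exons that counteracts Srsf1, had 436 and 425 signal in WT libraries against 220.4 and 199 in Ripk3-/- ones. Its WT and Ripk3-/- libraries were as clearly apart, with a log2 change of -1.04 (SE 0.16, adjusted p = 9.6e-04, limma). Reads of Hnrnpa1 and Hnrnpf may be shared with near-identical pseudogenes, of which 19 and 7 were found at 90% identity or more over at least 200 bases, and whether the counting assigned shared reads was not stated.

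Hnrnpul2, a relative of Hnrnpu that takes part in the DNA damage response, had 10.7 and 10.9 signal in WT libraries against 26.6 and 61.2 in Ripk3-/- ones. The 2 Ripk3-/- libraries were unequal but both above WT, with a log2 change of 1.81 (SE 0.42, adjusted p = 0.0263, limma). Hnrnph3, a smaller relative of Hnrnpf and Hnrnph1, had 5.46 and 5.70 signal in WT libraries against 21.9 and 21.7 in Ripk3-/- ones. Its replicates were close and its groups far apart, on 55 reads in each WT library. The log2 fold change of 1.79 (SE 0.51) had an adjusted p of 0.0722 (limma). DESeq2 on the recovered reads called Hnrnph3 at 1.93 and did not call Srsf2.

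The other hnRNPs did not pass the test in LSK cells. Hnrnpu, which binds nuclear matrix and chromatin, had 582 and 428 signal in WT libraries against 806 and 698 in Ripk3-/- ones, a difference of 0.59 on the log2 scale (adjusted p = 0.0634, limma). Hnrnpa2b1, a relative of Hnrnpa1, had 1057 and 1007 signal in WT libraries against 1459 and 1345 in Ripk3-/- ones, a difference of 0.44 on the log2 scale (adjusted p = 0.0925, limma). Both were higher in each Ripk3-/- library than in each WT library, as was Hnrnpa0, a binder of AU-rich RNA, at 0.70. On the lower side stood Hnrnpa3 at -0.86, with 42 near-identical pseudogenes, and Hnrnpul1 at -0.64. The smallest changes were in Hnrnph1, with 277 and 227 signal in WT libraries against 236 and 276 in Ripk3-/- ones, and Hnrnpl, a binder of CA repeats, with 149 and 147 signal in WT libraries against 137 and 166 in Ripk3-/- ones. Both differed by less than the spread between replicates, at 0.02 and 0.03. Hnrnpd had 60.2 and 66.6 signal in WT libraries against 50.6 and 65.9 in Ripk3-/- ones, and its groups overlapped.

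The Tra2 proteins, which bind exonic enhancers beside SR proteins, and the Clk kinases held 0 calls in LSK cells. At an unadjusted p under 0.05, limma counted 1 of 2 Tra2 genes and 1 of 4 kinases, and 3011 of all 16817 genes. Tra2a had 50.1 and 52.9 signal in WT libraries against 67.8 and 108 in Ripk3-/- ones, a difference of 0.72 on the log2 scale (adjusted p = 0.156, limma). Tra2b had 306 and 304 signal in WT libraries against 243 and 288 in Ripk3-/- ones, a difference of -0.20 on the log2 scale (adjusted p = 0.558, limma). Clk2 had 20.5 and 11.9 signal in WT libraries against 25.7 and 45.5 in Ripk3-/- ones, a difference of 1.08 on the log2 scale (adjusted p = 0.163, limma). The genotypes of these 3 did not overlap, Tra2a and Clk2 lying higher and Tra2b lower in Ripk3-/- cells. Clk4 had 152 and 147 signal in WT libraries against 129.9 and 116 in Ripk3-/- ones, a difference of -0.28 on the log2 scale (adjusted p = 0.52, limma). Clk1, a target of its own splicing control, had 378 and 343 signal in WT libraries against 374 and 455 in Ripk3-/- ones, a difference of 0.20 on the log2 scale (adjusted p = 0.579, limma). Clk3 changed least of all members in LSK cells, by 0.00499 on the log2 scale, with 193 and 193 signal in WT libraries against 198 and 189.7 in Ripk3-/- ones.

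The calls of Hnrnpf and Hnrnpa1 in LSK cells remained without any 1 of the 4 LSK libraries. Srsf2 and Srsf11 lost theirs without any 1 of them (adjusted p from 0.0713 to 0.362 and from 0.0551 to 0.134, limma), and Hnrnpul2 lost its call without WT LSK replicate 1, WT LSK replicate 2 or Ripk3-/- LSK replicate 2 (adjusted p = 0.113, 0.125 and 0.247, limma). Quantile normalization gave 6 higher and 2 lower members in place of 3 and 2, adding Hnrnph3, Hnrnpu and Hnrnpa2b1. Of all genes it called 403, with 167 of them higher, against 363 and 150 in the main fit.

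The same question was asked of LK cells. Srsf2 and Srsf9 were lower in Ripk3-/- LK cells, and 0 members were higher. These were 2 of 39 members, or 5.13%, against 0.473% of all 13949 genes tested (limma), of which 0.373% were lower and 0.1% higher. The edgeR test called 1 member, Srsf2, against 0.43% of all genes. The median log2 fold change was -0.08 over the members and 0.01 over all genes, and the genotypes did not overlap in 20 of the 39 members (51.3%), against 40% of all genes. Among genes with a mean of at least 5 signal, the medians were -0.07 and -0.02.

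Srsf2 had 505 and 159 signal in WT libraries against 38.7 and 70.5 in Ripk3-/- ones. The lowest WT library was above the highest Ripk3-/- library, but the WT libraries were farther apart than that gap, with a log2 change of -2.42 (SE 0.38, adjusted p = 0.0023, limma). Srsf9 had 158 and 51.4 signal in WT libraries against 22.1 and 33.6 in Ripk3-/- ones. Its groups did not overlap either, with a log2 change of -1.69 (SE 0.38, adjusted p = 0.0474, limma), and an adjusted p of 0.0719 by edgeR. Without WT LK replicate 1 the changes were -1.58 (adjusted p = 0.224, limma) for Srsf2 and -0.89 (adjusted p = 1.0, limma) for Srsf9, and without Ripk3-/- LK replicate 1 they were -1.99 (adjusted p = 0.161) and -1.40 (adjusted p = 0.851). Without Ripk3-/- LK replicate 2, Srsf9 alone lost its call (adjusted p = 0.0887, limma).

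Hnrnpd had 288 and 53.8 signal in WT libraries against 38.2 and 45.9 in Ripk3-/- ones. Both WT libraries were above both Ripk3-/- libraries but WT replicate 2 only narrowly, with a log2 change of -1.55 (SE 0.44, adjusted p = 0.201, limma). Without WT LK replicate 2 the value was -2.75 (adjusted p = 2.4e-05, limma), and without WT LK replicate 1 it was -0.35 (adjusted p = 1.0, limma), so that 1 library decided it. Srsf2 shares 460 exon bases on the opposite strand with Mettl23 and 288 with Mfsd11, and Hnrnpd shares 385 with Gm17092. Of the members called in LSK cells, Hnrnpf shares 410 and 396 on the opposite strand with 4933440N22Rik and Gm43863. Hnrnpul2 shares 360 on the same strand with AC129217.1. Hnrnph3 shares 115 on the opposite strand with Rufy2, which had 31.1 to 51.3 signal in LSK libraries. The libraries were made with a stranded kit, and whether counting used the strand was not stated. Mfsd11 had 24.3 and 30.8 signal in WT LK libraries against 28.4 and 32.4 in Ripk3-/- ones. The other overlapping genes besides Rufy2 were not analysed here. The part of overlapping genes in these values was not tested.

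The remaining SR proteins did not pass the test in LK cells. Srsf11, which was higher in Ripk3-/- LSK cells, had 147 and 106 signal in WT libraries against 129.7 and 122 in Ripk3-/- ones, a difference of 0.01 on the log2 scale (adjusted p = 0.996, limma). Srsf12 had 131 and 101 signal in WT libraries against 119 and 106 in Ripk3-/- ones, a difference of -0.03 on the log2 scale (adjusted p = 0.987, limma). Both overlapped between the genotypes and changed least among SR proteins. The other 8 SR proteins tested ran from -0.40 (Srsf7) to 0.76 (Srsf15) on the log2 scale, and both of these extremes had few reads in every LK library.

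Of 21 hnRNPs, 0 were called in LK cells by limma, and edgeR called 0 as well. An unadjusted p under 0.05 by limma was found for 2 (Hnrnpd and Hnrnpab) and for 915 of all 13949 genes. Hnrnpul2 had 21.1 and 29.6 signal in WT libraries against 23.9 and 13.7 in Ripk3-/- ones, a difference of -0.44 on the log2 scale (adjusted p = 0.92, limma). Hnrnpab, a relative of Hnrnpd, had 600.1 and 510.1 signal in WT libraries against 356 and 471 in Ripk3-/- ones, a difference of -0.43 on the log2 scale (adjusted p = 0.557, limma). Hnrnpul2 overlapped between the genotypes and Hnrnpab did not. Hnrnpf had 358 and 344 signal in WT libraries against 349.8 and 401 in Ripk3-/- ones and Hnrnpa1 had 563 and 459.6 signal in WT libraries against 397 and 412 in Ripk3-/- ones, at 0.09 and -0.33 on the log2 scale. Hnrnph3 had 5.10 and 5.57 signal in WT libraries against 4.76 and 4.10 in Ripk3-/- ones, a difference of -0.22 on the log2 scale (adjusted p = 0.975, limma). None of these 3 passed the test in LK cells. The smallest hnRNP changes were those of Hnrnpa2b1, with 1898 and 1693 signal in WT libraries against 1761 and 1684 in Ripk3-/- ones, and of Hnrnph1, with 199 and 232 signal in WT libraries against 215 and 195 in Ripk3-/- ones, at -0.06 and -0.07.

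Both Tra2 genes were higher in each Ripk3-/- LK library than in each WT library without passing the test. Tra2a had 53.3 and 45.9 signal in WT libraries against 70.2 and 63.0 in Ripk3-/- ones, a difference of 0.42 on the log2 scale (adjusted p = 0.868, limma). Tra2b had 301 and 325 signal in WT libraries against 404 and 346 in Ripk3-/- ones, a difference of 0.26 on the log2 scale (adjusted p = 0.872, limma). Among the kinases, 0 of 4 were called, and 0 passed an unadjusted p under 0.05 by limma, against 915 of all 13949 genes. Clk3 had 167 and 166 signal in WT libraries against 132 and 131 in Ripk3-/- ones and Clk1 had 274 and 256 signal in WT libraries against 234 and 209.9 in Ripk3-/- ones, both lower in Ripk3-/- cells without overlap, at -0.34 and -0.26. Clk2 had 14.3 and 17.02 signal in WT libraries against 18.6 and 17.6 in Ripk3-/- ones and Clk4 had 162 and 108 signal in WT libraries against 128 and 112 in Ripk3-/- ones, at 0.20 and -0.15.

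**Figure D4:**
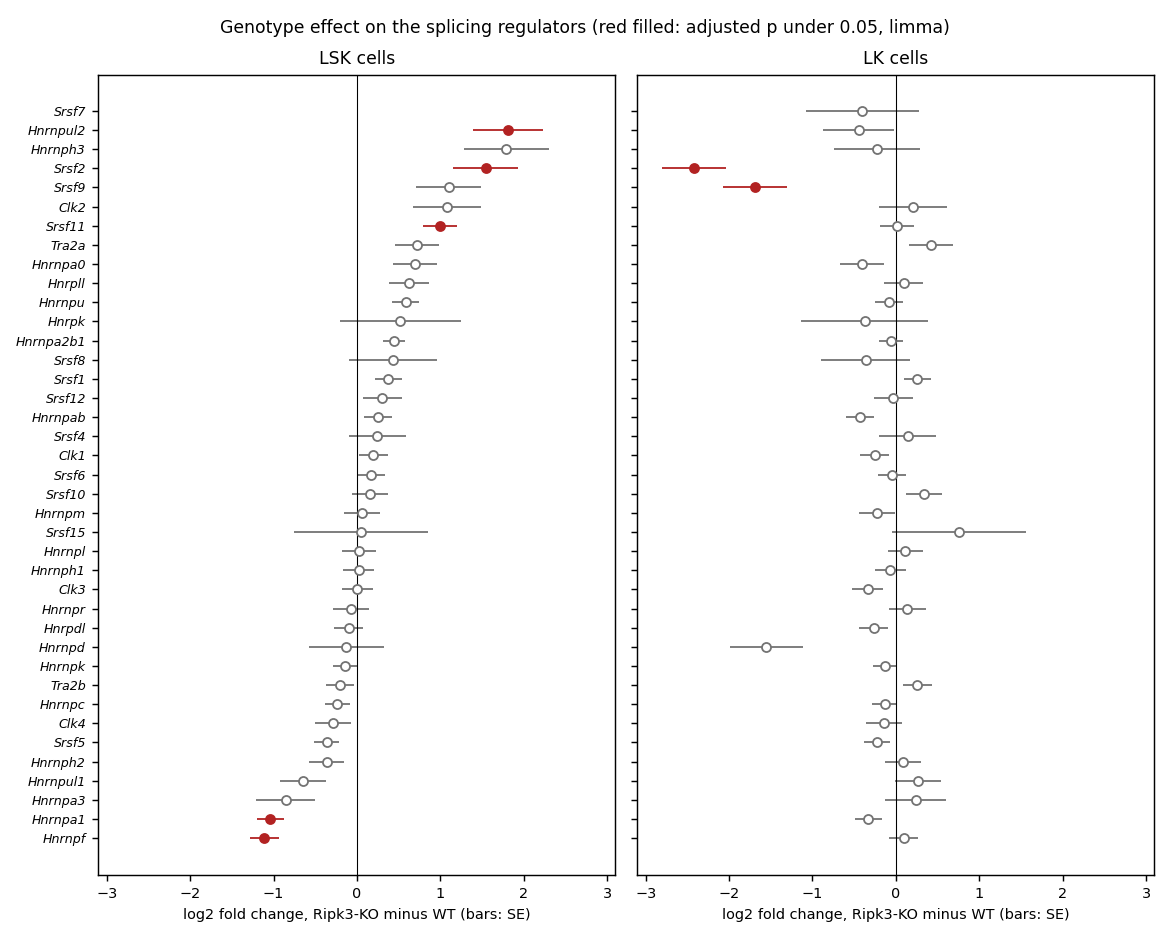
Log2 fold change of each member, Ripk3-/- minus WT, with its SE, in LSK (left) and LK (right) cells, ordered by the LSK value; filled red points passed the adjusted p. The 5 calls in LSK cells lie at 1.81, 1.54, 0.99, -1.04 and -1.11, and the 2 in LK cells at -2.42 and -1.69, with Hnrnpd at -1.55 not called.

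The genotype effect was then compared between LSK and LK cells. It differed for Srsf2, Srsf9 and Hnrnpf, 3 of 39 members (7.69%), against 0.358% of 15901 genes tested (limma), and edgeR called the same 3, against 0.34% of all genes. Srsf2 was higher in Ripk3-/- than in WT cells among LSK and lower among LK, and the difference of the effects was 3.96 (SE 0.54, adjusted p = 0.00101, limma). For Srsf9 it was 2.79 (SE 0.54, adjusted p = 0.0204, limma), from effects of 1.10 and -1.69. For Hnrnpf it was -1.20 (SE 0.25, adjusted p = 0.0270, limma), from effects of -1.11 and 0.09. Only Srsf2 kept this call without any 1 of the 8 libraries, with values of 3.13 to 4.79. Srsf9 lost it without WT LSK replicate 1 or 2, Ripk3-/- LSK replicate 2, WT LK replicate 1 or Ripk3-/- LK replicate 1 (adjusted p from 0.123 to 0.239, limma), and Hnrnpf lost it without any 1 library other than Ripk3-/- LSK replicate 1 (adjusted p from 0.0756 to 0.201, limma). Hnrnpd gained it without WT LK replicate 2, at 2.62 (adjusted p = 0.00141, limma). Hnrnpa1 (-0.71), Srsf11 (0.98) and Hnrnpul2 (2.26), called in LSK cells, had differences that did not pass the test (adjusted p = 0.284, 0.227 and 0.150, limma).

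LSK and LK cells of the same genotype were compared on the jointly scaled CPM. In WT mice 18 of 39 members passed the test, all 18 of them lower in LSK cells, or 46.2% against 23.9% of all 15950 genes tested (14.8% lower and 9.16% higher). The edgeR test called 18 members as well, against 18.1% of all genes. The median log2 fold change, LSK minus LK, was -0.56 for the members and 0.08 for all genes. Among genes with a mean of at least 5 CPM it was -0.58 for the members and -0.24 for all genes. The populations did not overlap in 31 of 39 members (79.5%), against 64% of all genes. Of the calls, 13 were among 21 hnRNPs and 5 among 12 SR proteins, and 0 among Tra2 and Clk genes. Of the Tra2 and Clk genes limma counted 1 (Tra2b) at an unadjusted p under 0.05, and 6079 of all 15950 genes.

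Hnrnpu had 511 and 376 CPM in LSK and 1238 and 1074 in LK libraries. Hnrnpa2b1 had 928 and 884 CPM in LSK and 2163 and 1910.3 in LK libraries. In both, every LK library was above every LSK library, with LSK minus LK differences of -1.39 (SE 0.17, adjusted p = 3.0e-06, limma) and -1.17 (SE 0.14, adjusted p = 4.1e-06, limma). Hnrpll (Hnrnpll), known for switching the CD45 isoform in T cells, had 63.5 and 44.7 CPM in LSK and 167 and 117 in LK libraries, a difference of -1.37 on the log2 scale (adjusted p = 2.6e-04, limma). Hnrnpm, a binder of GU-rich RNA, had 363 and 320.2 CPM in LSK and 699 and 704 in LK libraries, a difference of -1.04 on the log2 scale (adjusted p = 0.00159, limma). Hnrnph2, an X-linked relative of Hnrnph1, had 76.4 and 83.7 CPM in LSK and 170.2 and 139.8 in LK libraries, a difference of -0.94 on the log2 scale (adjusted p = 0.00348, limma). None of these overlapped between the populations.

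Hnrnpr, which resembles the mRNA stability factor Syncrip, had 69.4 and 74.6 CPM in LSK and 131 and 128 in LK libraries, a difference of -0.84 on the log2 scale (adjusted p = 0.00814, limma). Hnrnpul2 had 9.41 and 9.55 CPM in LSK and 24.0 and 33.4 in LK libraries, a difference of -1.49 on the log2 scale (adjusted p = 0.0141, limma). Among SR proteins Srsf1 had 205 and 207 CPM in LSK and 356 and 358 in LK libraries, a difference of -0.79 on the log2 scale (adjusted p = 0.00157, limma). All 3 were lower in each LSK library. Srsf10 had 89.3 and 86.8 CPM in LSK and 176 and 136 in LK libraries, a difference of -0.81 on the log2 scale (adjusted p = 0.0104, limma). Srsf2, Srsf9 and Hnrnpd were called at -1.97, -1.63 and -1.33 (adjusted p = 7.9e-04, 0.00384 and 0.0312, limma), and these calls were lost without WT LK replicate 1. All 3 were also lost without WT LSK replicate 2, and that of Hnrnpd without WT LSK replicate 1. The other calls, Hnrnpf, Hnrnpc, Hnrnpk, Hnrnpab, Hnrnpa1 and Srsf6, ran from -0.72 to -0.54. Without WT LK replicate 1, Hnrnpu, Hnrpll, Hnrnpa2b1, Hnrnpm, Srsf1, Hnrnpc and Hnrnpk kept their calls. The other members lost theirs, Hnrnph2, Hnrnpr, Hnrnpul2 and Srsf10 among them, and fewer of all genes passed as well. Hnrnpul2 also lost its call without any 1 of the other WT libraries, and Srsf10 without WT LSK replicate 2. Quantile normalization gave 6 lower members and 2 higher ones, Clk1 at 0.59 and Srsf5 at 0.56. Of all genes it called 1951, with 953 of them higher, against 3814 and 1461 in the main fit.

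In Ripk3-/- mice 20 of 38 members differed between the populations, or 52.6%, against 20.2% of all 15237 genes tested (limma), and edgeR called 18 members, against 17% of all genes. Lower in LSK cells were 15, against 12.2% of all genes, and higher were 5, against 7.95%. The median log2 fold change was -0.32 for the members and 0.00 for all genes, and the populations did not overlap in 28 of 38 members (73.7%), against 57.5% of all genes. Among genes with a mean of at least 5 CPM the medians were -0.34 for the members and -0.11 for all genes. The higher members were Srsf2, Srsf9, Hnrnph3, Hnrnpa0 and Clk1, and the lower ones were 12 hnRNPs, Srsf1, Srsf10 and Tra2b.

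Srsf2 had 228 and 252 CPM in LSK and 44.0 and 80.8 in LK libraries, a difference of 1.99 on the log2 scale (adjusted p = 6.0e-04, limma). Srsf9 had 54.0 and 92.6 CPM in LSK and 25.1 and 38.5 in LK libraries, a difference of 1.16 on the log2 scale (adjusted p = 0.0342, limma). The LSK libraries were above the LK libraries in both, the reverse of their order in WT mice. Hnrnph3 had 19.4 and 19.0 CPM in LSK and 5.40 and 4.70 in LK libraries, a difference of 1.74 on the log2 scale (adjusted p = 0.0189, limma). Hnrnpa0 had 70.0 and 114 CPM in LSK and 55.5 and 50.5 in LK libraries, a difference of 0.75 on the log2 scale (adjusted p = 0.0497, limma). Clk1 had 331 and 398 CPM in LSK and 266 and 240.5 in LK libraries, a difference of 0.52 on the log2 scale (adjusted p = 0.0369, limma). These 3 had no counterpart among the WT calls, where limma gave -0.26, -0.35 and 0.07.

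Hnrnpf was the member farthest down in Ripk3-/- LSK cells, with 120.1 and 103 CPM in LSK and 397 and 459.8 in LK libraries, a difference of -1.93 on the log2 scale (adjusted p = 4.7e-08, limma). Hnrnph2 had 68.8 and 56.0 CPM in LSK and 171 and 158 in LK libraries, a difference of -1.39 on the log2 scale (adjusted p = 6.8e-05, limma). Hnrnpa1 had 195 and 174 CPM in LSK and 451 and 473 in LK libraries, a difference of -1.32 on the log2 scale (adjusted p = 5.3e-06, limma). None of the 3 overlapped between populations, and for Hnrnpf the LK libraries were more than 3-fold higher. Hnrnpr (-1.06), Hnrnpul1 (-1.02), Hnrnpa3 (-1.02) and Srsf10 (-0.996) were lower by about 1 on the log2 scale. Hnrnpa3 passed only barely (adjusted p = 0.04997, limma), and edgeR did not call it. Tra2b had 216 and 252 CPM in LSK and 459 and 397 in LK libraries, a difference of -0.87 on the log2 scale (adjusted p = 8.0e-04, limma), and was the only Tra2 call. The remaining lower calls, Hnrpll, Hnrnpc, Hnrnpm, Hnrnpu, Hnrnpk, Hnrnpa2b1 and Srsf1, ran from -0.85 to -0.67. Quantile normalization gave 8 higher and 7 lower members, so that the excess of lower calls in Ripk3-/- mice depends on the scaling. Of all genes it called 2403, with 1186 of them higher, against 3072 and 1212 in the main fit. Fewer members passed without any 1 of the Ripk3-/- libraries, as did fewer of all genes. Hnrnph3 and Hnrnpa3 lost their calls in each of these fits. Srsf2 was the only higher member without Ripk3-/- LSK replicate 2, Ripk3-/- LK replicate 1 or Ripk3-/- LK replicate 2.

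Lower in LSK cells of both genotypes were 12 members, 66.7% of the WT list and 80% of the Ripk3-/- list. For all genes the shared part was 55.8% and 70.5%. The 12 were Hnrnpa1, Hnrnpa2b1, Hnrnpc, Hnrnpf, Hnrnph2, Hnrnpk, Hnrnpm, Hnrnpr, Hnrnpu, Hnrpll, Srsf1 and Srsf10. The WT and Ripk3-/- libraries are separate, but both comparisons used the same joint scaling, and the shared list depends on it. With quantile normalization the lower members in WT were Hnrnpa2b1, Hnrnpu, Hnrnpul2, Hnrpll, Srsf2 and Srsf9. In Ripk3-/- mice they were Hnrnpa1, Hnrnpa3, Hnrnpf, Hnrnph2, Hnrnpr, Hnrnpul1 and Srsf10, so that no member was on both lists. With this setting 1951 of all genes were called in WT and 2403 in Ripk3-/- mice, and their shared part was not counted.

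**Figure D5:**
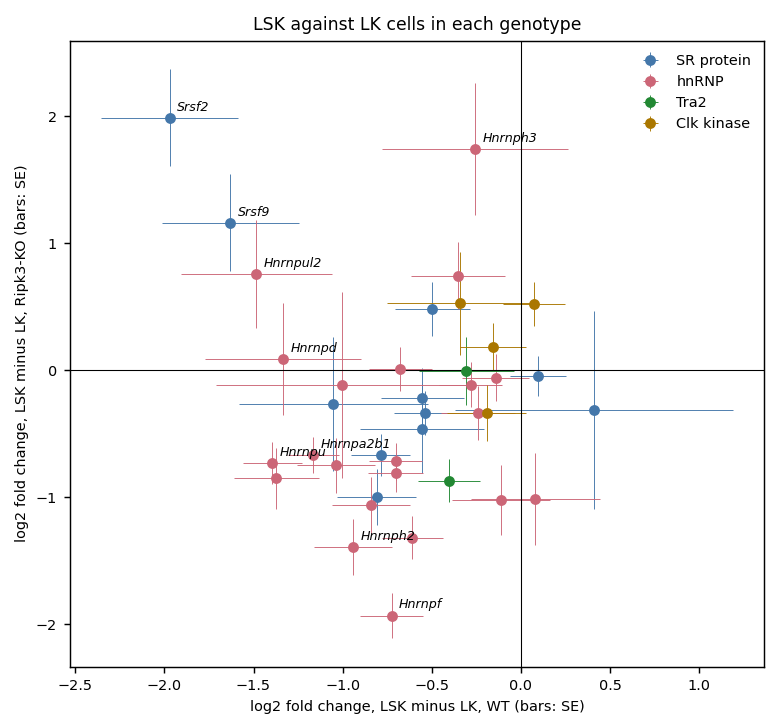
Log2 fold change LSK minus LK in WT (x axis) and in Ripk3-/- mice (y axis) for the 38 members tested in both, with SE, colored by role. Most hnRNPs lie below 0 on both axes, whereas Srsf2 (-1.97 and 1.99) and Srsf9 (-1.63 and 1.16) lie low on the first and high on the second.

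Other regulators of splicing were counted from 4 lists of 99 listed genes: SR protein kinases and import factors, SR-related proteins, hnRNP-like and PTB proteins, and further factors of splice site choice. In LSK cells 2 of 96 tested passed, 2.08%, close to the 2.16% of all genes. Rbm5, which guides splicing of apoptosis genes, was higher in Ripk3-/- LSK cells at 265 ± 39.4 against 137 ± 7.38 signal in WT (SD, n = 2), with a log2 change of 0.94 (SE 0.18, adjusted p = 0.00752, limma). Rnps1, a partner of the exon junction complex, was lower at 119 ± 4.72 against 197 ± 0.127 signal in WT (SD, n = 2), with a log2 change of -0.72 (SE 0.19, adjusted p = 0.0481, limma), and edgeR gave Rnps1 an adjusted p of 0.0637. By list, the calls were 0 of 12, 1 of 25, 0 of 26 and 1 of 33, and 30 of the 96 passed an unadjusted p under 0.05, as did 3011 of all 16817 genes. In LK cells 0 of 89 passed by limma, edgeR and DESeq2, and 9 had an unadjusted p under 0.05 by limma, as did 915 of all 13949 genes. The median log2 fold change of these genes was 0.19 in LSK and -0.04 in LK cells. Between LSK and LK, 29 of 95 (30.5%) passed in WT mice, against 23.9% of all genes, and 24 of the 29 were lower in LSK cells. In Ripk3-/- mice 29 of 91 (31.9%) passed, against 20.2% of all genes, and 18 of the 29 were lower (limma).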

How the data were processed

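RNA-seq was performed on LSK and LK cells of WT and Ripk3-/- mice, with 2 libraries in each of 4 groups. The authors aligned reads with TopHat to mm9, per the labels. The deposited signal is headed FPKM, but 100% of the values above 0 were whole multiples (tolerance 0.01) of 1 step per library whatever the gene length, so that it is reads times a library factor, and reads were recovered from it. Log2(signal + 1) was fitted with limma 3.58.1 (trend, R 4.3.3) over all 8 libraries, keeping genes whose signal averaged 1 or more. LSK and LK were compared on CPM scaled together by TMM. Adjusted p-values are Benjamini-Hochberg over all genes tested, at a threshold of 0.05. edgeR 4.0.16 and DESeq2 1.42.0 on recovered reads were alternatives, and the scripts were tested on simulated data. An exact permutation of 2 against 2 cannot go below 0.333. Positions are GENCODE M21 and promoters RefSeq, both GRCm38, and no coordinate of mm9 was used. Values were given in every library for most members called in a comparison (up to 12 by size), and the other calls by log2 change. Such values also cover Srsf2, the 5 members with the largest WT LK replicate ratio and the 2 largest and 2 smallest changes per role. Members and lists were chosen with earlier results of these data known.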

Additional observations from a re-analysis of the deposited data

Results flagged for a closer look

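The effect of genotype differed between LSK and LK cells, by limma's test of that difference, for 3 members. For Srsf2 the LSK effect minus the LK effect was 3.96 on the log2 scale, from 1.54 and -2.42, and edgeR gave an adjusted p of 0.0097. For Srsf9 it was 2.79, from 1.10 and -1.69, with an adjusted p of 0.0396 by edgeR. For Hnrnpf it was -1.20, from -1.11 and 0.09, with an adjusted p of 0.0358 by edgeR. Every Ripk3-/- library lay above every WT library in LSK cells and below in LK cells for Srsf2 and Srsf9. The summed neutrophil signal was higher in Ripk3-/- libraries of both populations, and its part in these differences was not tested.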

How the results depend on the processing

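Among the alternatives for single members, 160 kept direction and side of the threshold, 43 lost a call, 2 gained one and 2 reversed a small change. With 1 library left out, Hnrnpd in LSK ran from -0.32 to 0.0571 (without Ripk3-/- LSK replicate 1) and Hnrnpf in LK from -0.00522 (without Ripk3-/- LK replicate 2) to 0.192. Members called in LSK were 3 with no filter on low values and 8 with quantile normalization. Of all genes, 198 and 403 were called there, against 363 in the main fit. With 1 library left out, fewer members and fewer of all genes were called. Members called in LK were 0 with no filter, where 9 of all genes were called against 66 in the main fit. They were 1 with a pseudocount of 0.1, quantile normalization, edgeR or the replicate block, where 56, 39, 60 and 64 of all genes were called. With 1 library left out, they were more or fewer than in the main fit. Different effects numbered 0 with no filter, where 3 of all genes were called against 57 in the main fit. With 1 library left out, they were never more than in the main fit. LSK against LK gave 8 in WT with quantile normalization, and 7 to 17 in WT and 11 to 18 in Ripk3-/- mice with 1 library left out. Other splicing genes called in LSK were 1 with a pseudocount of 0.1, no filter, a separate fit, the replicate block or edgeR. Those settings called 195 to 317 of all genes. They were 4 with a mean of at least 5 and 5 with DESeq2, where 338 and 613 of all genes were called. With 1 library left out they were fewer than in the main fit, and in LK they were 0 in every fit of all libraries. Members at least 2-fold apart between replicates in Ripk3-/- LK were 1 with a pseudocount of 0.1 or no TMM factor. In the main setting they were 0, against 11.1% of all genes. The causes were not tested. A lone library left in a group was assumed to vary like the others.

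Replicate numbers were not taken as pairs, since deviations of same-numbered libraries correlated at -0.149 to 0.0538. The replicate block gave 5 members in LSK, 1 in LK (Srsf9 at an adjusted p of 0.0575, limma), 3 for the difference of effects, 18 in WT and 18 in Ripk3-/- mice. Of all genes it called 317, 64, 53, 3598 and 2940. The crossed block, chosen after seeing the data, gave 19 in Ripk3-/- mice. Depth limits members of few reads, which reached at most 33 in Srsf7 and 42 in Hnrpk, 4 to 115 in Srsf15, 41 to 196 in Srsf8 and 55 to 272 in Hnrnph3.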
